A study of Mus musculus with 2 samples.

Results

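The subject is a set of 7 genes of enteroendocrine cells, the hormone-secreting cells of the gut epithelium, in small intestinal organoids. They were taken by symbol from the deposited tables: the fate transcription factors Neurog3, Neurod1 and Pax4, the granule protein gene Chga and the hormone genes Cck, Gcg and Pyy. All 7 were among the 1448 genes of the tables. The AdipKO organoids came from mice with both adiponectin alleles floxed and a Cre recombinase under the villin promoter, labelled Adipfl/flpVilli-CreT, which is active in gut epithelium. Those from WT mice carried the same floxed alleles without Cre, labelled Adipfl/fl. Crypts were embedded in Matrigel and cultured with EGF, Noggin and R-spondin, and RNA of 1 library per genotype was sequenced. The age and number of the mice behind each library are not given in these sources.

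Enteroendocrine cells arise from crypt stem cells through a secretory progenitor. Notch signalling restrains that step, and transient Neurog3 then commits a progenitor to the endocrine fate, with Neurod1 and Pax4 acting after it. The mature cells store peptide hormones with chromogranin A in dense-core granules and release them when nutrients arrive. They are a rare population in the epithelium, classically split into types by hormone, such as I cells for cholecystokinin and L cells for glucagon-like peptides and peptide YY.

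With 1 library per genotype there was no replicate check, and no test between genotypes could be made. Every fold below is the ratio of both estimated read counts as deposited, with an exact 95% interval (Clopper-Pearson) that covers counting error only. The tables hold only part of the genes. Between -1.04 and 0.96 on the log2 scale there was no count ratio at all, so each of the 1448 genes differed by about 2-fold or more. Passing that size was therefore a property of the table, and only the direction and the amount could vary among its genes. Counts over all listed genes came to 689005 in AdipKO and 802995 in WT, and these sums are not depths. Adipoq, the targeted gene, was not analysed here, so the genotype of each library rests on its label and on no measured value. Every direction below is that of the library labelled AdipKO against the library labelled WT, and all of them would reverse if the labels were swapped. Markers tied to the crypt base, the site of stem and Paneth cells, were lower in the library labelled AdipKO. Lgr5, which marks stem cells, had 3127 counts in AdipKO and 7858 in WT, and Olfm4, another stem cell marker, had 34083 in AdipKO and 92810 in WT. Ascl2 and Tnfrsf19, also of stem cells, were 2.94-fold and 2.29-fold lower, and Lyz1, the Paneth cell lysozyme gene, was 2.08-fold lower. The authors describe Lgr5, Olfm4, Ascl2, Tnfrsf19 and Lyz1 as higher in the knockout organoids, by RNA sequencing and quantitative PCR. The deposited counts run the other way under their labels, and whether the labels were exchanged was not tested. The 9 fixed markers of intestinal epithelium, such as Epcam and Vil1, were not analysed here either.

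Promoter windows are printed for Cck, Gcg, Chga and Neurog3, which had the most counts of the 7 genes. Neurog3 and Neurod1 encode basic helix-loop-helix factors, which bind E-boxes (CANNTG). Whether either factor acts on these genes in the organoids was not tested. RefSeq promoter windows on GRCm38.p6, the assembly behind mm10, were held for 6 of the 7 genes: Neurog3, Neurod1, Chga, Cck, Gcg and Pyy. Each sequence is the 250 bases before the annotated start, and capitals mark the E-box forms CAGATG and CAGCTG, searched on both strands. A stretch just after the annotated start occurred in a GENCODE M21 transcript of the same gene for every window but that of Chga.
Gcg (chr2:62483654-62483903, minus strand): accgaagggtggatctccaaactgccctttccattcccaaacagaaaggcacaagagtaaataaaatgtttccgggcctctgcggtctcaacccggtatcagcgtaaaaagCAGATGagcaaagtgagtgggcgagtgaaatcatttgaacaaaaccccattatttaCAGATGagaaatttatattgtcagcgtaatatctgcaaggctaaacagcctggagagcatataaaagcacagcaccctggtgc
Cck (chr9:121495695-121495944, minus strand): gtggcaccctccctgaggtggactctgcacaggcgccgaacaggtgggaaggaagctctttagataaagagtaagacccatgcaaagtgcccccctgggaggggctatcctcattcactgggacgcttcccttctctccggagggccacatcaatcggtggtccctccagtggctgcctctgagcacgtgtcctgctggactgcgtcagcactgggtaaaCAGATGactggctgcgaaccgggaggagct
Chga (chr12:102554691-102554940, plus strand): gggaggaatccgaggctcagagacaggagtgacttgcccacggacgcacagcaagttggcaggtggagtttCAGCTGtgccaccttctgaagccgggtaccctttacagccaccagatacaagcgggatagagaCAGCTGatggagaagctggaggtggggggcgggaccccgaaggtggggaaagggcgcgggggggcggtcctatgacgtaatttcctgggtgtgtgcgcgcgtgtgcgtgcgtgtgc
Neurog3 (chr10:62132840-62133089, plus strand): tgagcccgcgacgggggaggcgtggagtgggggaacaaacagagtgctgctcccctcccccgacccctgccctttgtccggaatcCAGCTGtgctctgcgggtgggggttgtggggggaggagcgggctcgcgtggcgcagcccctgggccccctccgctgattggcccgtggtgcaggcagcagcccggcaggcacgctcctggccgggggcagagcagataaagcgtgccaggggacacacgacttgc
The window of Gcg held CAGATG at 2 places, beginning 139 and 83 bases before the start, and that of Cck held it once, 30 bases before the start. The window of Chga held CAGCTG at 2 places, 179 and 116 bases before the start, and that of Neurog3 held it once, 165 bases before the start. Of all 32851 promoter windows of this length in the same source, 14.4% held CAGATG, 13.0% held CAGCTG and 25.5% held either form. The general form CANNTG, which includes both, was in 66.2% of all windows. In the window of Neurod1 the one E-box was CATATG, a form found in 3.46% of all windows, and in both windows of Pyy it was CAAGTG. The windows of Neurod1 and Pyy held neither CAGATG nor CAGCTG and are not printed. These matches describe letters in a window and not bound sites.

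All 7 genes had lower counts in the AdipKO-labelled library than in the WT-labelled one, by 2.16-fold to 3.43-fold. At 2-fold or more, with a pseudocount of 1 added to each count, 7 of 7 were lower and 0 were higher. Over all genes of the tables, 62.2% of genes were lower at that size and 35.3% were higher. The genes were proposed with results of these data known, so their count is a description. Their median log2 ratio with the pseudocount was -1.30 (range -1.64 to -1.11), beside -1.15 over all 1448 genes and -1.46 over the 901 genes that were at least 2-fold lower. Summed over the 7 genes there were 4478 counts in AdipKO organoids and 10663 counts in WT organoids, which is 2.38-fold lower (2.299 to 2.47). These counts are unscaled and the depth of each library is unknown. In these bulk libraries fewer enteroendocrine cells, less RNA of each gene per cell and a difference in depth cannot be told apart.

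Under both other scalings tried the 7 directions could not reverse, because the shifts were smaller than the distance of any listed ratio from 0. The 2-fold calls did not all hold. When both libraries were scaled to the same listed total, all log2 ratios without the pseudocount moved up by 0.22. Then 4 of the 7 genes (Cck, Gcg, Pax4 and Pyy) were at least 2-fold lower, while Neurog3, Chga and Neurod1 were 1.95-fold, 1.87-fold and 1.86-fold lower. Under that scaling 45.6% of all genes were lower and 37.8% were higher at that size.

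**Figure D1:**
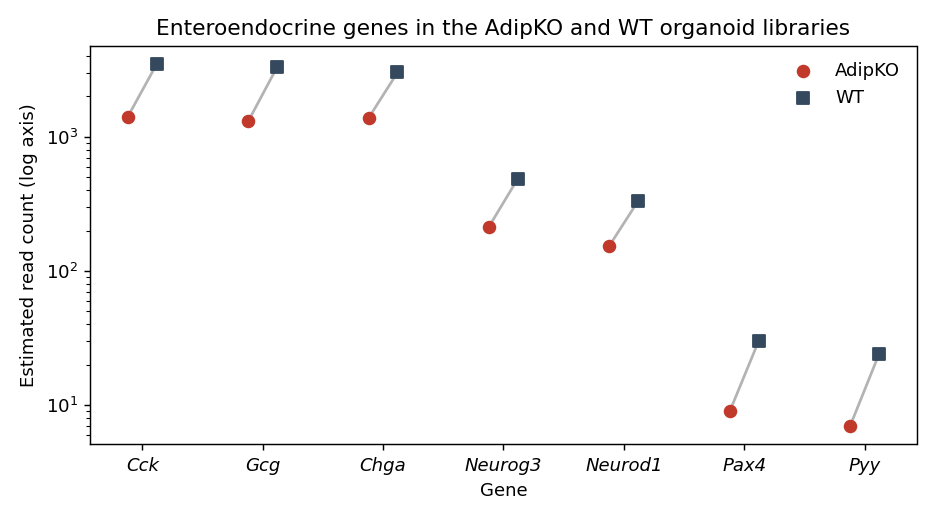
Estimated read counts (log axis) of the 7 enteroendocrine genes, with AdipKO as red circles and WT as dark squares, 1 library each. All 7 genes sit lower in AdipKO, and Pax4 and Pyy have at most 30 counts in either library.

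Among the hormone genes, Cck and Gcg carried nearly all counts. Cck encodes cholecystokinin, which drives gallbladder contraction and pancreatic enzyme secretion, and it had 1412 counts in AdipKO organoids and 3478 counts in WT organoids. That is 2.46-fold lower in AdipKO (2.31 to 2.62). Gcg encodes proglucagon, which L cells cut into glucagon-like peptides, and it had 1303 counts in AdipKO organoids and 3302 counts in WT organoids, 2.53-fold lower (2.38 to 2.70). Both were among the better counted genes of the table: by count, Cck ranked 95 in AdipKO and 34 in WT, and Gcg ranked 103 in AdipKO and 39 in WT. Pyy encodes peptide YY, an L cell hormone that slows gut transit, and it rested on 7 counts in AdipKO organoids and 24 counts in WT organoids. Its ratio of 3.43-fold lower has an interval from 1.43 to 9.42, so its larger size is not resolved from that of the other hormones. The 3 hormone genes together had 2722 counts in AdipKO organoids and 6804 counts in WT organoids, 2.4996-fold lower (2.39 to 2.61).

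Chga encodes chromogranin A, which packs hormones into dense-core granules and marks most enteroendocrine types. It had 1379 counts in AdipKO organoids and 3009 counts in WT organoids, 2.18-fold lower (2.05 to 2.33). With Neurod1 it lay closest to the edge of the table: of the 901 lower genes, 123 (13.7%) lay closer to the gap in log2 ratios than Chga, and 105 (11.7%) lay closer than Neurod1. At the other end 605 (67.1%) lay closer than Pyy.

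The transcription factors were lower with fewer counts. Neurog3, the factor that commits progenitors to the endocrine lineage, had 214 counts in AdipKO organoids and 487 counts in WT organoids, 2.28-fold lower (1.93 to 2.69). Neurod1, a factor that acts downstream of Neurog3 in endocrine differentiation, had 154 counts in AdipKO organoids and 333 counts in WT organoids, 2.16-fold lower (1.78 to 2.63). Pax4, a paired homeobox factor of early endocrine fate, had 9 counts in AdipKO organoids and 30 counts in WT organoids, 3.33-fold lower (1.54 to 7.98). The 3 together gave 377 counts in AdipKO organoids and 850 counts in WT organoids, 2.25-fold lower (1.99 to 2.55). Strand handling was not given. In GENCODE M21, exons of Neurog3 overlap those of Fam241b on the opposite strand. Exons of Neurod1 there overlap Gm26755 on the opposite strand and Cerkl on the same strand. The other 5 genes overlapped no exon of another gene in GENCODE M21, and all 7 had whole-number counts in both libraries.

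The 7 genes lie on 6 chromosomes. In mm10, Gcg (NCBI gene 14526) spans 62474530 to 62483653 and Neurod1 (18012) spans 79452637 to 79456636, both on chromosome 2. Cck (12424) lies on chromosome 9 from 121489824 to 121495694 and Chga (12652) on chromosome 12 from 102554941 to 102565027. Neurog3 (11925) lies on chromosome 10 from 62133090 to 62134763. Pax4 (18506) lies on chromosome 6 from 28442334 to 28449340 and Pyy (217212) on chromosome 11 from 102106676 to 102107832.

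Per length, the levels of the 7 genes stood in the same order in both libraries. Counts were divided by the median length of each gene's protein-coding transcripts in GENCODE M21. Cck was highest, with 2043 counts per kilobase in AdipKO and 5033 in WT. Gcg followed with 1496 counts per kilobase in AdipKO and 3791 in WT, and Chga with 732 in AdipKO and 1598 in WT. Neurog3 had 204 counts per kilobase in AdipKO and 465 in WT, and Neurod1 had 56.4 in AdipKO and 122 in WT. Pyy, with 12.7 counts per kilobase in AdipKO and 43.6 in WT, and Pax4, with 7.35 in AdipKO and 24.5 in WT, came last, and their exact Poisson intervals overlapped in both libraries. The intervals of all other neighbours in this order were apart.

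Ratios between genes of one library do not depend on scaling between libraries. Those that differed between AdipKO and WT beyond counting error were all among Chga, Cck and Gcg, the genes with the most counts. Over the 21 pairs of the 7 genes, the ratio of both genes in AdipKO over the same ratio in WT had an exact 95% interval that excluded 1 in 2 pairs. Chga over Gcg was 1.06 in AdipKO and 0.911 in WT, a ratio of ratios of 1.16 (1.06 to 1.27). Chga over Cck was 0.977 in AdipKO and 0.865 in WT, 1.13 (1.03 to 1.23). With intervals widened for 21 pairs the first excluded 1 (1.01 to 1.34) and the second did not (0.983 to 1.297). Cck over Gcg gave 1.03 (0.9402 to 1.126) and Neurog3 over Neurod1 gave 0.9502 (0.735 to 1.23). Pairs with Pax4 or Pyy had wide intervals, such as 0.291 to 3.77 for Pax4 over Pyy, and a difference there was not detectable at these counts.

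**Figure D2:**
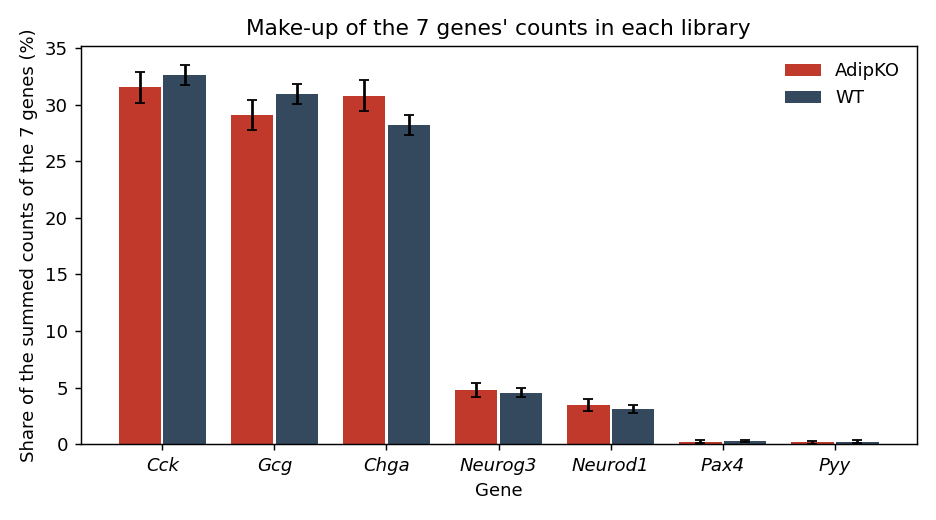
Share of each gene in the summed counts of the 7 genes (percent), with AdipKO bars left of WT bars and exact 95% binomial intervals of counting error. Cck, Gcg and Chga each hold 28.2% to 32.6% in both libraries, and the share of Chga is higher in AdipKO.

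As shares of the 7 genes' summed counts, Cck made up 31.5% (30.2 to 32.9) in AdipKO and 32.6% (31.7 to 33.5) in WT. Gcg made up 29.1% (27.8 to 30.5) in AdipKO and 31.0% (30.1 to 31.9) in WT. Chga made up 30.8% (29.4 to 32.2) in AdipKO and 28.2% (27.4 to 29.1) in WT, and it was the one gene whose intervals did not overlap. Neurog3 held 4.78% in AdipKO and 4.57% in WT, and Neurod1 held 3.44% in AdipKO and 3.12% in WT.

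Other genes of the enteroendocrine programme had counts in the same direction, with 1 exception. Of 95 further genes in 5 lists covering fate factors, hormones and serotonin, granules, excitability and nutrient sensing, and secretory fate signalling, 22 were in the tables. Of these, 21 were at least 2-fold lower in AdipKO, 1 was higher, and the median log2 ratio was -1.37. This stands beside 62.2% lower, 35.3% higher and a median of -1.15 over all genes. With equal listed totals 13 of the 22 were at least 2-fold lower, and the median was -1.15 beside -0.93 over all genes. By sign 21 stayed lower, as the gap in the ratios requires. The lists were written with earlier results of these data known, and the remaining 73 genes were not analysed here.

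Among the fate factors, Nkx2-2, a homeobox factor needed for normal enteroendocrine differentiation, had 96 counts in AdipKO organoids and 212 counts in WT organoids, 2.21-fold lower (1.73 to 2.84). Prox1, a homeobox gene expressed in enteroendocrine and tuft cells, was 2.37-fold lower (1.93 to 2.93). Lmx1a and Fev are tied to the serotonin-producing enterochromaffin type. Lmx1a had 26 counts in AdipKO organoids and 87 counts in WT organoids, 3.35-fold lower (2.14 to 5.40), and Fev was 2.10-fold lower (1.53 to 2.93). Myt1, Runx1t1 and Mnx1 were 2.35-fold, 2.17-fold and 2.07-fold lower on at most 89 counts in a library. Glis3, a zinc finger factor known from pancreatic beta cells, went the other way with 34 counts in AdipKO organoids and 15 counts in WT organoids, 2.27-fold higher (1.20 to 4.48).

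Of the further hormone and amine genes, Slc18a1 and Adm were in the tables. Slc18a1, the vesicular monoamine transporter that loads serotonin into granules, had 142 counts in AdipKO organoids and 446 counts in WT organoids, 3.14-fold lower (2.59 to 3.82). Adm, which encodes adrenomedullin and is made by many cell types, had 77 counts in AdipKO organoids and 478 counts in WT organoids, 6.21-fold lower (4.87 to 8.004). Among granule genes Ptprn2, a membrane protein of dense-core vesicles, had 742 counts in AdipKO organoids and 1612 counts in WT organoids, 2.17-fold lower (1.99 to 2.37). Vgf and Pcsk1n, which encode granule peptides, were 3.04-fold (1.96 to 4.83) and 3.89-fold lower (1.83 to 9.20).

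All 7 listed of 27 genes of excitability and nutrient sensing were at least 2-fold lower, beside 62.2% of all genes. With equal listed totals 5 of the 7 were at least 2-fold lower, beside 45.6% of all genes. The calcium channel genes Cacna1a and Cacna1h were 2.80-fold (2.23 to 3.55) and 2.14-fold lower (1.58 to 2.91). Rab3c and Syp, which encode vesicle proteins, were 3.06-fold (2.33 to 4.05) and 2.17-fold lower (1.58 to 3.01). Cckar, the cholecystokinin receptor gene, had 8 counts in AdipKO organoids and 51 counts in WT organoids, 6.38-fold lower (3.003 to 15.6). Ffar2, a receptor for short-chain fatty acids, had 12 counts in AdipKO and 30 in WT, and Gpr119, a lipid receptor of L cells, had 3 counts in AdipKO and 14 in WT. The Notch ligand gene Dll4 was 2.84-fold lower (2.34 to 3.46) and Dll3 was 2.94-fold lower (1.93 to 4.57).

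**Figure D3:**
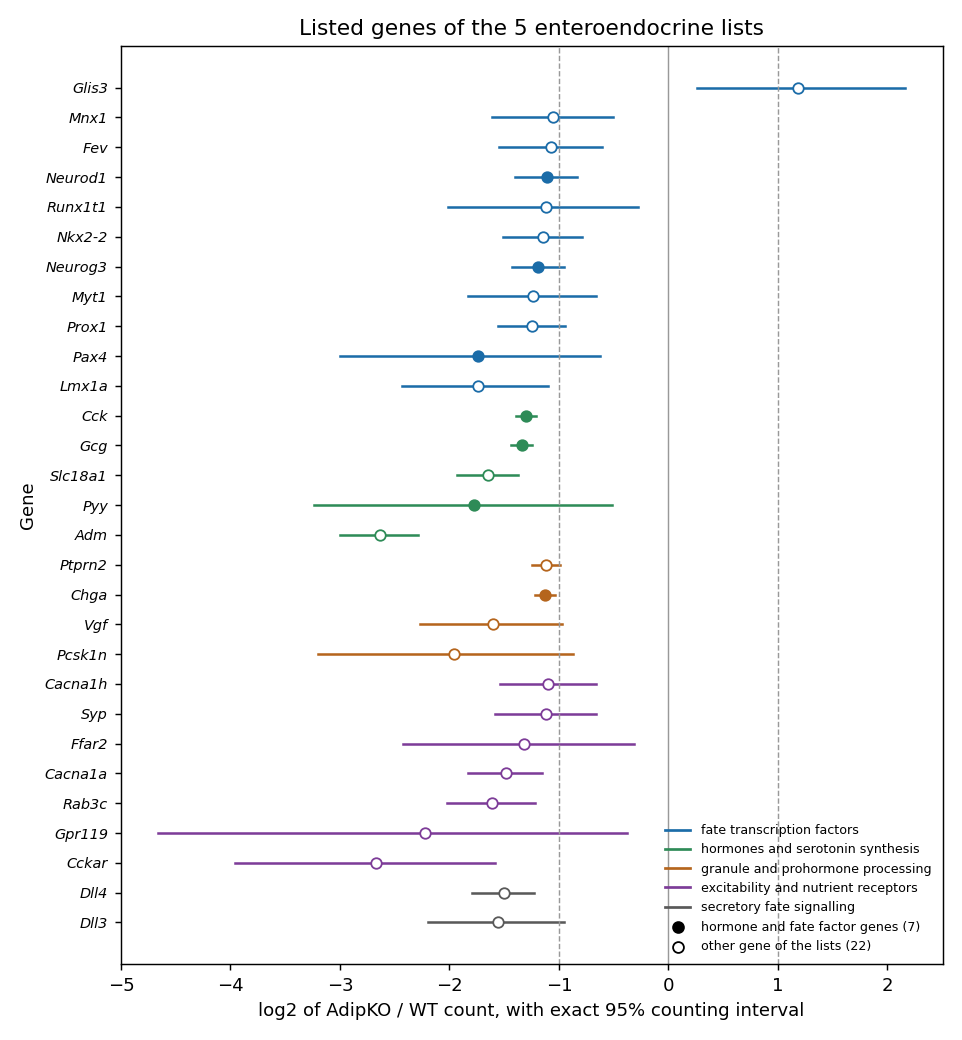
Log2 of the AdipKO over WT count for the 29 listed genes of 5 enteroendocrine lists, with exact 95% intervals of counting error; filled points are the 7 hormone and fate factor genes, open points the other 22, colours the lists, and dashed lines 2-fold. Glis3 is the one gene right of 0.

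Set against Chga, 19 of the other 28 genes had an interval that included 1. The ratio to Chga in AdipKO over that in WT had an exact 95% interval wholly below 1 in 8 genes and wholly above 1 in Glis3. With intervals widened for 28 comparisons it was below 1 in 3 genes and above 1 in Glis3. The 3 were Gcg at 0.861 (widened interval 0.745 to 0.996), Slc18a1 at 0.695 (0.4996 to 0.954) and Adm at 0.352 (0.231 to 0.519). Neurod1 at 1.01 (0.819 to 1.24), Nkx2-2 at 0.988 (0.762 to 1.27), Syp at 1.01 (0.721 to 1.39) and Ptprn2 at 1.004 (0.900 to 1.12) stood near 1, given here with unwidened intervals. An interval that includes 1 does not show that a gene moved as Chga did. Chga was 2.18-fold lower, and the lower genes of the tables began at 2.06-fold lower. A lower gene therefore had little room above 1 and no such limit below it. Of the 901 lower genes, 123 lay closer to the gap than Chga. The excess of intervals below 1 over those above 1 was thus partly set by which genes were listed. The comparison with Chga was not made over all genes of the tables, so no share over all genes stands beside these counts. They describe the listed genes only.

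**Figure D4:**
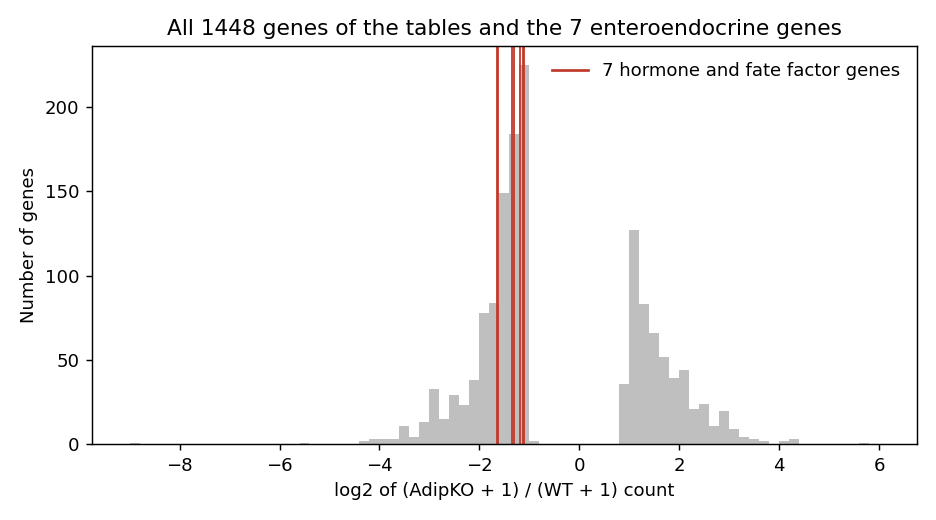
Number of genes by log2 of the AdipKO over WT count (pseudocount 1) for the 1448 genes of the tables, with red lines at the 7 enteroendocrine genes. The 7 lines lie between -1.64 and -1.11, next to the empty range around 0.

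The tables held markers of other epithelial cells that moved with the 7 genes, and others that moved against them. All 7 listed of 14 stem cell markers were at least 2-fold lower, with a median log2 ratio of -1.45 and 42039 summed counts in AdipKO against 112791 in WT. For Lgr5, Tnfrsf19, Ascl2 and Olfm4 among them the authors describe the reverse direction, as stated above. All 6 listed of 12 Paneth cell markers were lower (median -1.24, 30422 summed counts in AdipKO and 65306 in WT), as were 3 of 3 listed goblet cell markers out of 12 (median -1.25, 467 summed counts in AdipKO and 1130 in WT). Of 13 enterocyte markers 4 were listed, 3 higher and 1 lower (median 1.57, 5163 summed counts in AdipKO and 1621 in WT). Of 12 tuft cell markers 3 were listed, 2 higher and 1 lower, on at most 44 counts in a library. These counts stand beside 62.2% of all genes lower and 35.3% higher. With equal listed totals 5 of the 7 stem, 3 of the 6 Paneth and 2 of the 3 goblet markers were at least 2-fold lower. All of them stayed lower by sign, as the gap in the ratios requires. Dll4 is one of the 6 Paneth markers and is also counted among the 22 further enteroendocrine genes. The part of these cell types in the lower enteroendocrine counts was not tested.

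**Figure D5:**
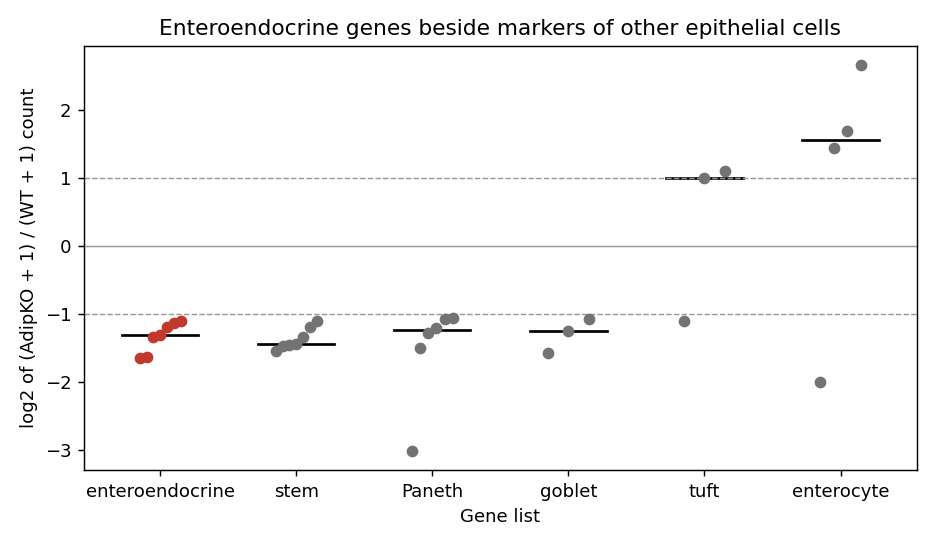
Log2 of the AdipKO over WT count (pseudocount 1) for the 7 enteroendocrine genes (red) and the listed markers of 5 other epithelial cell types (grey), with 1 point per gene, black bars at the medians and dashed lines at 2-fold. The enteroendocrine, stem, Paneth and goblet points all lie at or below -1.06, and 3 of 4 enterocyte points lie above 1.

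Relative to these lists the 7 genes were near the goblet, stem and Paneth markers and far from the enterocyte markers. The gap in the ratios holds genes of opposite direction apart, so the distance from the enterocyte markers partly restates their direction. Summed, the listed goblet markers Galnt12, Ccl9 and Tpsg1 were 2.42-fold lower (2.17 to 2.70), beside 2.38-fold for the 7 genes. Galnt12 alone held 320 of their 467 counts in AdipKO and 761 of their 1130 counts in WT. The sum thus rests mostly on that gene, and no value without it was computed. The summed count of the 7 genes over that of the stem cell markers was 1.13 times as high in AdipKO as in WT (1.09 to 1.17). It was 1.05 times as high (1.01 to 1.10) without Olfm4, which held most of the stem cell counts. Over the Paneth cell markers it was 0.902 times as high in AdipKO as in WT (0.868 to 0.936), and 0.936 times (0.899 to 0.975) without Lyz1. Over the enterocyte markers it was 0.132 times as high (0.123 to 0.141), and 0.141 times (0.121 to 0.164) without Sis.

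With only 1 library per genotype, likeness to the 7 genes could be measured only by the distance from their median log2 ratio. Of 354 genes with at least 500 counts over both libraries, the 7 genes left out, 44 lay within 0.1 of it. Among the nearest were Aacs, which encodes acetoacetyl-CoA synthetase, with 967 counts in AdipKO organoids and 2377 counts in WT organoids. Cybrd1, a ferric reductase of the duodenal brush border, had 1283 counts in AdipKO and 3151 in WT. Tead2, a transcription factor of the Hippo pathway, and Fgfr3, a fibroblast growth factor receptor gene, had 197 and 324 counts in AdipKO, against 492 and 786 in WT.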

How the data were processed

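RNA of small intestinal organoids was sequenced at BGI with paired-end reads in 1 library per genotype, AdipKO and WT. The methods name FPKM and fold change, but the authors deposited unscaled estimated counts for each gene, per the file headers. The build was mm10 per the labels, while no aligner, counter, annotation or strand handling is named in those sources. Both tables hold the same 1448 genes, joined by gene ID, with whole-number counts in both libraries for 1239 (85.6%). Depth is unknown, since the tables are a selected part of each library.

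The design allowed no test, so ratios of unscaled counts were given with exact 95% intervals after rounding to whole counts (Clopper-Pearson, or the conditional odds ratio between genes), checked on simulated counts. Reads are not independent molecules, so intervals cover counting error only. A gene was called lower or higher at 2-fold with a pseudocount of 1. The 7 genes and the lists were chosen with earlier results of these data known. Named genes were these 7, every listed gene of 5 enteroendocrine lists, and the 5 genes nearest in ratio with a role sure enough to state, 1 of which is not reported here. Other genes named with values, markers of other cell types and Cerkl, were chosen after their values were seen. The comparisons with Chga, with widened intervals and with other lists, and the promoter motifs, were chosen after the data were seen. Of 1448 gene IDs, 1436 matched RefSeq. Python 3.11.15, numpy 2.4.6, pandas 2.3.3, scipy 1.17.1 and matplotlib 3.10.9 were used.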

Additional observations from a re-analysis of the deposited data

How the results depend on the processing

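Pseudocounts of 0 and 5, scaling by the middle of the gap in the log2 ratios, whole-number counts, the mean or the summed counts in place of the median, and a minimum of 50 counts were tried, besides equal listed totals and other fold thresholds. Over 52 recomputed values, 44 moved by less than counting error or 1.5 times and 8 moved further. Part of the 44 was fixed in advance and does not measure stability. Rounding could not alter any value, because the counts of the 7 genes were integers already. Leaving out genes under 50 counts could not alter the 2 differing pairs, which lie among Chga, Cck and Gcg. None of the 52 values changed sign. A reversal was not possible for a listed gene, since pseudocounts keep the order of both counts and the scalings shift less than the gap. Equal listed totals gave a median log2 ratio of -1.08 and 4 of 7 genes at least 2-fold lower. Leaving out Pax4 and Pyy, with under 50 counts in both libraries, gave a median of -1.18. At 2.5-fold 3 of the 7 genes were lower and at 4-fold 0 were. For single genes, equal totals moved Chga to -0.90, Cck to -1.08 and Gcg to -1.12, past their counting intervals. The shift of 0.22 in every ratio, before the pseudocount, requires this. Low counts limit Pax4 and Pyy. Without replicates the spread between cultures or animals is unknown. No paired analysis was possible because each genotype had 1 library.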

Other observations

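Enteroendocrine cells share vesicle and channel genes with neurons, so markers of cells outside the epithelium were looked up as well. Of 16 such markers 4 were in the tables. The neuronal tubulin gene Tubb3 had 16 counts in AdipKO organoids and 51 counts in WT organoids, 3.19-fold lower (1.79 to 5.99), and Vim, an intermediate filament gene of mesenchymal cells, had 109 counts in AdipKO and 322 in WT, 2.95-fold lower (2.37 to 3.71). S100b, a glial marker, had 24 counts in AdipKO and 5 in WT, and Itgam, a myeloid integrin gene, had 57 counts in AdipKO and 25 in WT, both higher in AdipKO. Elavl4, Uchl1 and Sox10, which mark enteric neurons and glia, were not analysed here. Cerkl, whose exons overlap those of Neurod1 on the same strand in GENCODE M21, had 0 counts in AdipKO organoids and 6 counts in WT organoids. Its RefSeq span on chromosome 2, from 79332491 to 79428988, does not reach that of Neurod1.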
